A study of Mus musculus with 105 samples.

Results

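Endoderm genes were followed through 4 days of embryonic stem cell differentiation. The set comprised 8 genes of the 52108 in the bulk count tables: the transcription factors Gata4, Gata6, Sox17, Sox7 and Foxa2, the receptor Pdgfra, the adaptor Dab2 and the laminin chain Lama1. They were chosen by name, as textbook markers of endoderm, with earlier results of these data known, and all 8 passed the filter on low counts in both bulk data sets.

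All cells came from TX1072, a female mouse embryonic stem cell line (clone A3) from a cross of the strains C57BL/6 (B6) and CAST/EiJ (Cast), in which a promoter that responds to doxycycline was placed before Xist on the B6 X chromosome and the rtTA activator in Rosa26. Cells were held in 2i/Lif medium on day 0 and sampled on days 1, 2, 3 and 4 after its withdrawal. Bulk RNA was sequenced in 3 replicates per day from TX1072 and from 2 derivatives that lack the X inactivation centre on 1 X chromosome. These are TXdXicB6 (on B6) and TXdXicCast (on Cast), each a single clone. The deletion of TXdXicB6 includes Xist on B6, and with Xist the promoter that responds to doxycycline. Single TX1072 cells were sequenced from 1 culture per day, the culture that also gave replicate 1 of the TX1072 bulk series. For day 1 alone, the labels also list each chip column as RapidRun, a sequencing mode with other read lengths. Any part of this mode in the day 1 cells cannot be told apart from the day.

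The 45 bulk libraries held 19827000 to 39628800 counts in TX1072, 20246400 to 49962900 in TXdXicB6 and 16906300 to 57920300 in TXdXicCast, and each line and day had 3 replicates (n = 3), differentiated on separate days. The TX1072 libraries were made with another kit than those of the deletion lines, so levels were compared within a kit only. RNA of the TXdXicCast day 0 libraries was degraded and was fragmented differently, and every change from day 0 in that line rests on them. A total of 1472 cells was retained of 2000 capture sites, 277, 325, 341, 257 and 272 on days 0 to 4, with 43060 to 300322 distinct molecules (unique molecular identifiers, UMIs) per cell.

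In the mouse blastocyst, Gata6 drives inner cell mass cells towards primitive endoderm, where Pdgfra, Sox17, Gata4 and Sox7 follow and Dab2 is needed to sort the cells into an outer epithelium. Its descendants are the visceral endoderm, which surrounds the embryo, and the parietal endoderm, which lays down a thick basement membrane rich in laminin. Definitive endoderm arises later, at the primitive streak, from cells that express Eomes and T and then Foxa2 and Sox17. Several of these genes therefore mark more than 1 lineage, and Foxa2 is also used by axial mesoderm and the node. Undifferentiated stem cells make Lama1 themselves.

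By day 4 all 8 genes differed from day 0 in TX1072, 7 of them higher and Lama1 lower, against 57.7% of the 19030 genes tested (31.5% higher and 26.2% lower). Calls rest on edgeR's quasi-likelihood test with Benjamini-Hochberg adjustment over all genes tested (adjusted p below 0.05), and fold changes are given on the log2 scale with their SE. The count was 3 genes on day 1, 4 on day 2 and 5 on day 3, beside 45.6%, 54.8% and 54.4% of all genes. At these shares a called gene was not unusual, so the size and timing of each change are described gene by gene. The median log2 fold change of the 8 genes on day 4 was 1.94, and that of all genes tested was 0.03. Levels are in CPM, counts scaled to the size of the library. In bulk RNA, more cells that express a gene cannot be told apart from more RNA per cell.

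**Figure D1:**
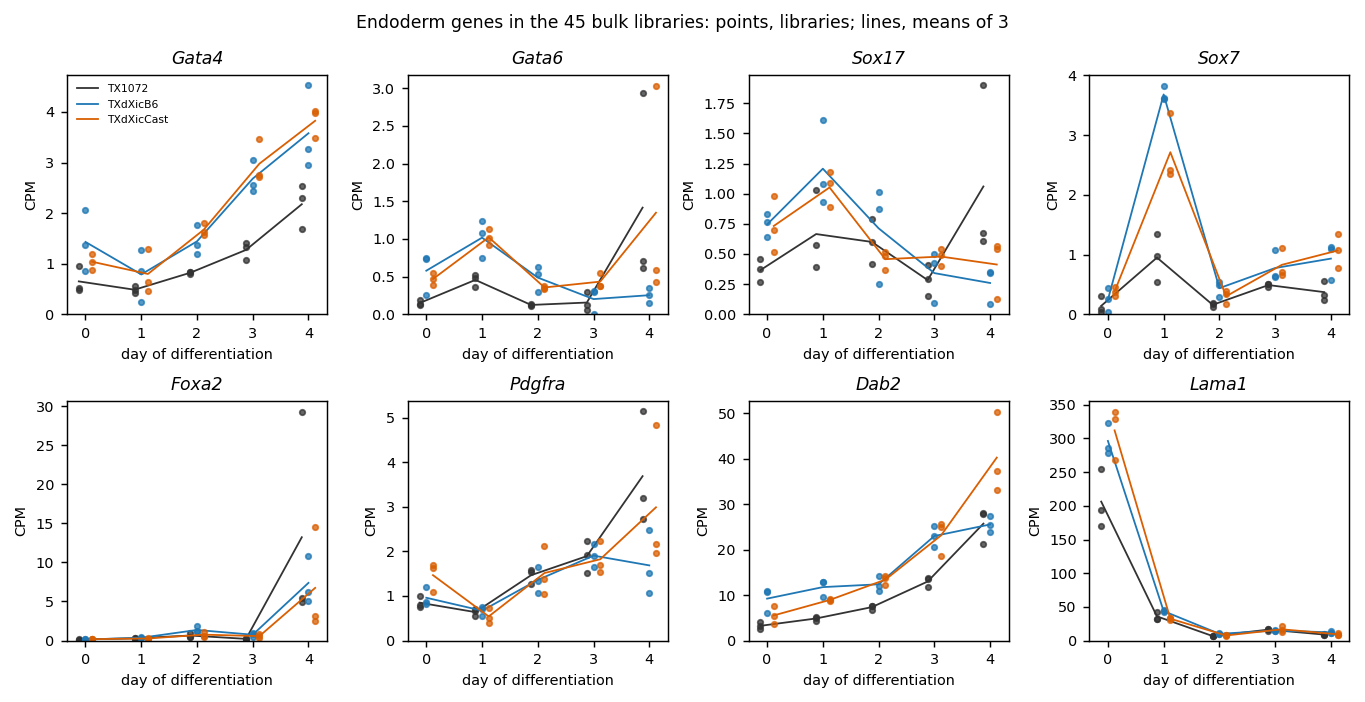
Levels of the 8 endoderm genes (CPM, counts scaled to library size, linear axes from 0) by day of differentiation in the 45 bulk libraries. Points are libraries and lines the means of 3. Lama1 was highest on day 0 in all 3 lines, Sox7 on day 1, and Dab2 and Foxa2 on day 4, where 1 TX1072 library (29.2 CPM of Foxa2) and 1 TXdXicCast library (14.6) lay far above the others of their group.

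Foxa2 is a forkhead pioneer factor, which opens chromatin at endoderm genes. Its level in TX1072 was 0.0804, 0.112 and 0.207 CPM in the 3 day 0 libraries and 29.2, 5.47 and 4.97 CPM in those of day 4, in the order of replicates 1, 2 and 3. Every day 4 library lay above every library of the other days, and replicate 1 was the highest. The log2 fold change was 6.67 ± 0.71 against day 0 and 5.91 ± 0.67 against day 3 (edgeR adjusted p = 8.54e-08 and 2.69e-06). Without replicate 1 of day 4 these were 5.29 and 4.55. A first, small rise was called on day 2 (2.27 ± 0.88, edgeR adjusted p = 0.0346) and not on day 3, where the 3 libraries held 0.362, 0.152 and 0.126 CPM. The day 2 call rested on 59 counts over the 3 libraries and was lost in 4 of 10 alternative analyses.

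The promoter of Foxa2 is shown because this gene gave the largest rise of the 8. The stretch from 250 bases before to 50 bases after the first of its 3 annotated starts lies on chromosome 2, minus strand (chr2:148046920-148047219 in GRCm38, sequence from RefSeq). The capital marks the only B6/Cast difference in it (T203G, positions counted from the 5′ end, B6 base first).
Foxa2 start 1: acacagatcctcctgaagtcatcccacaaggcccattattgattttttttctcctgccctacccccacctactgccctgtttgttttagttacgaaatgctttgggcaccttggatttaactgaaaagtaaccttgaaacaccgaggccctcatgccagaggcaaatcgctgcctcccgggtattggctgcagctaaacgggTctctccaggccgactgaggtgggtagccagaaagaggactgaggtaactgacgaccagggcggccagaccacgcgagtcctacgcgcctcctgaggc
Promoters were searched on both strands for a motif of each family of factors, AGATAA for GATA factors, TGTTTAC for forkhead factors and AACAAT for SOX factors. They occur in 11.2%, 3.65% and 10.7%, respectively, of all 32851 RefSeq promoters of this length. No match lay in the promoter printed above, and AGATAA lay 183 bases before the third start.

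Gata6, the factor that starts the primitive endoderm programme, was low until day 3 and rose on day 4. The TX1072 libraries held 0.134, 0.187 and 0.124 CPM on day 0 and 2.93, 0.703 and 0.61 CPM on day 4, so the groups did not overlap and replicate 1 stood above the other day 4 libraries, as it did for Foxa2. The log2 fold change was 3.21 ± 0.59 (edgeR adjusted p = 9.88e-05), and 2.08 without replicate 1 (edgeR adjusted p = 0.00124). On day 1 the 3 libraries held 0.48, 0.525 and 0.363 CPM, all above those of day 0. That difference of 1.60 ± 0.65 missed the threshold (edgeR adjusted p = 0.0513) and passed it with the replicate number as a block (1.73, edgeR adjusted p = 0.0141). From day 1 to day 2 Gata6 fell (-1.85 ± 0.66, edgeR adjusted p = 0.0323), a call lost in 5 of 10 alternatives.

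Gata4, its close relative and a later endoderm factor, rose without such a gap between libraries. Its TX1072 levels were 0.509, 0.486 and 0.954 CPM on day 0, 1.34, 1.07 and 1.41 CPM on day 3 and 1.69, 2.3 and 2.53 CPM on day 4. The libraries of days 3 and 4 all lay above those of day 0, and replicate 1, highest for Gata6 and Foxa2, was the lowest of day 4 here. The log2 fold change was 1.01 ± 0.30 on day 3 and 1.77 ± 0.28 on day 4 (edgeR adjusted p = 0.00693 and 1.91e-05).

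The SoxF factors Sox17 and Sox7 had different time courses. Sox17, needed for definitive endoderm and also active in primitive endoderm, held 0.268, 0.374 and 0.456 CPM on day 0 and 1.9, 0.672 and 0.61 CPM on day 4 in TX1072. Its log2 fold change of 1.54 ± 0.48 (edgeR adjusted p = 0.00958) became 0.79 without day 4 replicate 1 and was then not called (edgeR adjusted p = 0.171). The rise thus rested on that library, and no rise was called against day 1 (0.66 ± 0.44, edgeR adjusted p = 0.206).

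Sox7, a factor of primitive endoderm and vessels, peaked on day 1. Its TX1072 levels were 0.0804, 0.299 and 0.0415 CPM on day 0 and 0.539, 1.34 and 0.968 CPM on day 1, without overlap, before they returned to 0.188, 0.119 and 0.166 CPM on day 2. The rise was 2.76 ± 0.51 (edgeR adjusted p = 0.000156) and the fall from day 1 to day 2 was -2.58 ± 0.49 (edgeR adjusted p = 0.000274). Day 4 lay above day 0 (1.42 ± 0.57, edgeR adjusted p = 0.0392) but below day 1 (-1.34 ± 0.43, edgeR adjusted p = 0.0109), and the former call was lost in 5 of 10 alternatives. Without day 0 replicate 2 it was 2.46 (edgeR adjusted p = 0.00402). Over 3 libraries, Sox7 had only 12 counts on day 0 and 35 on day 4.

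Pdgfra, the receptor for platelet-derived growth factor A and an early surface marker of primitive endoderm, was higher from day 2 on. TX1072 libraries held 0.751, 1.01 and 0.788 CPM on day 0, 0.659, 0.709 and 0.544 CPM on day 1, 1.58, 1.55 and 1.27 CPM on day 2 and 5.14, 2.72 and 3.2 CPM on day 4. Libraries of day 1 all lay below those of day 0, a difference that was not called (-0.40 ± 0.30, edgeR adjusted p = 0.2996), and those of days 2 and 4 all lay above. The step from day 2 to day 3 was not called (0.38 ± 0.26, edgeR adjusted p = 0.315). The log2 fold change was 0.79 ± 0.28 on day 2 (edgeR adjusted p = 0.0225, lost in 5 of 10 alternatives), 1.17 ± 0.28 on day 3 and 2.12 ± 0.27 on day 4 (edgeR adjusted p = 0.00133 and 9.86e-07).

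Dab2, an adaptor that links lipoprotein receptors such as Lrp2 to clathrin, had the most regular rise. Its TX1072 levels were 2.63, 3.1 and 3.98 CPM on day 0, 4.38, 4.99 and 5.2 CPM on day 1, 7.62, 6.79 and 7.64 CPM on day 2, 11.7, 13.6 and 13.7 CPM on day 3, and 21.2, 27.9 and 27.9 CPM on day 4. The libraries of 1 day did not overlap with those of any other day. Each step from day to day was called, with log2 fold changes of 0.60 ± 0.17, 0.60 ± 0.17, 0.82 ± 0.16 and 0.99 ± 0.16 (edgeR adjusted p = 0.00807, 0.00699, 0.000792 and 0.000109). From day 0 to day 4 Dab2 rose by 3.00 ± 0.17 (edgeR adjusted p = 8.01e-12).

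Lama1, the alpha 1 chain of the first laminin of the embryo, was the exception and fell. Its TX1072 levels were 194, 254 and 171 CPM on day 0, 32.3, 42.7 and 32.7 CPM on day 1, 6.38, 6.58 and 6.92 CPM on day 2, 17.2, 16.6 and 14.8 CPM on day 3 and 8.42, 9.43 and 8.73 CPM on day 4. No library of 1 day overlapped with another day, so a second, smaller wave stood out on day 3. Lama1 changed by -2.52 ± 0.15 on day 1 and by -4.96 ± 0.17 on day 2 against day 0 (edgeR adjusted p = 3.35e-11 and 7.72e-15). It then rose by 1.29 ± 0.15 from day 2 to day 3 and changed by -0.87 ± 0.15 from day 3 to day 4 (edgeR adjusted p = 3.22e-06 and 0.000219).

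Between consecutive days in TX1072, 5 of the 8 genes changed between days 1 and 2, 3 between days 2 and 3, and 7 between days 3 and 4, beside 37.9%, 25.9% and 26.4% of all genes. Some of these calls depended on the analysis. From day 3 to day 4, Gata4 stayed called in 2 of 10 alternatives, Sox17 in 8 and Pdgfra in 9. Sox7 stayed called from day 2 to day 3 in 4 of 10, and Gata6 from day 1 to day 2 in 5 of 10. Onset was defined as the first day called against day 0 with every later day called in the same direction. By this, in TX1072 Dab2 and Lama1 changed from day 1, Pdgfra from day 2, Gata4 and Sox7 from day 3, and Gata6, Sox17 and Foxa2 from day 4. Per kilobase of exon, the day 4 levels in TX1072 were 5.58 ± 5.85 RPKM for Foxa2, 3.50 ± 0.53 for Dab2, 0.915 ± 0.054 for Lama1, 0.557 ± 0.112 for Gata4, 0.368 ± 0.128 for Pdgfra, 0.222 ± 0.152 for Sox17, 0.217 ± 0.202 for Gata6 and 0.112 ± 0.048 for Sox7 (SD, n = 3). On day 0 of TX1072 Lama1 alone was above 1, at 21.3 ± 4.5 RPKM. Neighbours in the day 4 order differed by less than the sum of their SDs, except Dab2 and Lama1 and then Lama1 and Gata4.

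**Figure D2:**
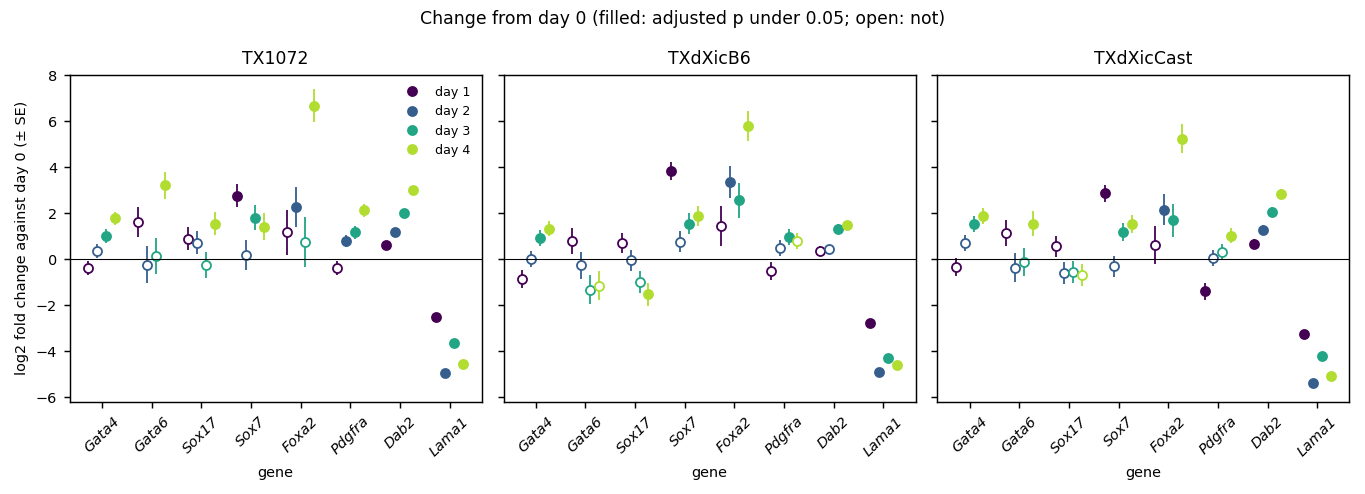
Log2 fold change of each gene against day 0 of its own line (± SE, linear axis) in TX1072 and the deletion lines, coloured by day. Filled points passed an adjusted p of 0.05 and open points did not. Foxa2 on day 4 had the largest rise in all 3 lines (6.67, 5.79 and 5.24), and Lama1 was lower on every day.

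In the deletion lines, Lama1, Sox7, Gata4, Dab2 and Foxa2 changed in the same direction as in TX1072. On day 4, 6 of the 8 genes were called in TXdXicB6 and 7 in TXdXicCast, beside 59% and 69.6% of the 19819 genes tested in each. On days 1, 2 and 3 the count was 2, 2 and 6 in TXdXicB6, beside 45.2%, 55.6% and 57.4%, and 4, 3 and 5 in TXdXicCast, beside 58.7%, 66.1% and 68.2%. Since RNA quality differed on day 0, day 4 was also compared with day 1, a choice made after seeing the data. In that comparison 8 genes were called in TXdXicB6 (4 higher and 4 lower), 7 in TXdXicCast (4 and 3) and 7 in TX1072 (5 and 2), beside 56%, 58.8% and 57.7% of all genes. Foxa2 was 0.0414, 0.133 and 0.213 CPM on day 0 and 5.12, 6.19 and 10.8 CPM on day 4 in TXdXicB6, and 0.174, 0.205 and 0.153 CPM and then 3.17, 2.46 and 14.6 CPM in TXdXicCast. Its day 4 libraries lay above all earlier ones in both lines. The log2 fold change was 5.79 ± 0.65 in TXdXicB6 and 5.24 ± 0.62 in TXdXicCast (edgeR adjusted p = 1.18e-08 and 1.92e-08), and 4.04 in the latter without day 4 replicate 3, the library with 14.6 CPM. In both lines Foxa2 was already called from day 2 on (3.35 ± 0.71 and 2.15 ± 0.69, edgeR adjusted p = 0.000227 and 0.00744). In TXdXicCast the day 3 call (1.69, edgeR adjusted p = 0.0410) was kept in only 5 of 10 alternatives.

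The day 1 peak of Sox7 was present in both. Sox7 held 0.0414, 0.433 and 0.256 CPM on day 0 and 3.82, 3.6 and 3.62 CPM on day 1 in TXdXicB6, and 0.463, 0.308 and 0.372 CPM and then 3.37, 2.36 and 2.41 CPM in TXdXicCast. The groups did not overlap, and the log2 fold changes were 3.84 ± 0.40 and 2.86 ± 0.38 (edgeR adjusted p = 7.65e-09 and 3.38e-07). By day 2 Sox7 was back between 0.168 and 0.54 CPM in the 6 libraries. Gata4 rose on day 4 by 1.32 ± 0.34 in TXdXicB6 and by 1.89 ± 0.35 in TXdXicCast (edgeR adjusted p = 0.00131 and 2.26e-05).

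Lama1 fell to day 4 by 4.61 on the log2 scale in TXdXicB6 and by 5.07 in TXdXicCast (SE 0.16 and 0.17, edgeR adjusted p = 4.48e-19 and 7.79e-20). Its day 0 libraries held 324, 279 and 286 CPM and 329, 268 and 339 CPM, and those of day 2 held 10.1, 10.7 and 9.15 CPM and 7.6, 7.64 and 7.22 CPM. Dab2 rose by 1.47 ± 0.21 in TXdXicB6, from 6.12, 10.7 and 10.8 CPM to 25.4, 27.3 and 23.9 CPM (edgeR adjusted p = 6.07e-07). In this line Dab2 was called from day 3 on, later than in TX1072. Its day 1 and day 2 changes were not called (0.35 ± 0.21 and 0.42 ± 0.21, edgeR adjusted p = 0.180 and 0.0864). In TXdXicCast it rose by 2.84 ± 0.22, from 3.53, 7.55 and 5.49 CPM to 37.3, 33.0 and 50.3 CPM (edgeR adjusted p = 3.7e-12).

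For Gata6, Sox17 and Pdgfra the day 4 calls depended on the line and on the day taken as the base. Gata6 in TXdXicB6 was 0.745, 0.734 and 0.256 CPM on day 0 and 0.251, 0.354 and 0.153 CPM on day 4, a difference of -1.16 ± 0.63 that missed the threshold (edgeR adjusted p = 0.113) and passed it with no filter on low counts (edgeR adjusted p = 0.0402). Against day 1 it fell in this line (-1.95 ± 0.59, edgeR adjusted p = 0.0059). In TXdXicCast it was 0.463, 0.547 and 0.394 CPM and then 0.581, 0.431 and 3.03 CPM. The call there (1.54 ± 0.55, edgeR adjusted p = 0.014) ended without day 4 replicate 3 (0.21, edgeR adjusted p = 0.721), and none was made against day 1 (0.41 ± 0.50, edgeR adjusted p = 0.508). Sox17 fell in TXdXicB6, from 0.827, 0.767 and 0.64 CPM to 0.351, 0.0818 and 0.345 CPM (-1.53 ± 0.51, edgeR adjusted p = 0.0116), and against day 1 too (-2.23 ± 0.49, edgeR adjusted p = 0.000311). In TXdXicCast it held 0.984, 0.513 and 0.7 CPM on day 0 and 0.543, 0.129 and 0.564 CPM on day 4 (-0.69 ± 0.47, edgeR adjusted p = 0.193), and against day 1 it fell (-1.24 ± 0.46, edgeR adjusted p = 0.0212). Pdgfra rose in TXdXicB6 on day 3 (0.97 ± 0.35, edgeR adjusted p = 0.0198, lost in 3 of 10 alternatives). It was 1.51, 1.06 and 2.49 CPM on day 4 in that line (0.78 ± 0.35, edgeR adjusted p = 0.0612). In TXdXicCast it was 1.97, 2.16 and 4.84 CPM (1.02 ± 0.33, edgeR adjusted p = 0.00743), a call lost without replicate 3 (0.53, edgeR adjusted p = 0.150). On day 1 Pdgfra had fallen in TXdXicCast, from 1.62, 1.09 and 1.68 CPM to 0.736, 0.498 and 0.388 CPM (-1.41 ± 0.38, edgeR adjusted p = 0.00265). Against day 1, day 4 Pdgfra was higher in both lines, by 1.31 ± 0.37 in TXdXicB6 and 2.43 ± 0.37 in TXdXicCast (edgeR adjusted p = 0.00327 and 2.19e-06).

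Compared with each other, the deletion lines differed in 1 of the 8 genes on day 0 and 2 on day 4, beside 19% and 5.38% of all genes, and in none on days 1, 2 and 3, beside 0.383%, 0.363% and 1.17%. With the replicate number as a block, 116, 111, 410 and 1637 of all genes differed on days 1 to 4, in place of 76, 72, 232 and 1066. At an unadjusted p below 0.05, 1, 1 and 0 genes differed on days 1, 2 and 3 (Lama1 on both of the former days), and DESeq2 called 0 on each. Dab2 was lower in TXdXicCast on day 0 (-0.72 ± 0.22, edgeR adjusted p = 0.0195), where RNA quality also differed, and higher on day 4 (0.66 ± 0.20, edgeR adjusted p = 0.0479). Gata6 was higher in TXdXicCast on day 4 (2.36 ± 0.57, edgeR adjusted p = 0.0119). Without TXdXicCast day 4 replicate 3 these day 4 differences were 1.00 for Gata6 and 0.47 for Dab2 (edgeR adjusted p = 0.514 and 0.403). Both day 4 calls also ended without TXdXicB6 replicate 1 or 3, and the day 0 call ended without TXdXicB6 replicate 2 or 3 or TXdXicCast replicate 1 or 3. Over all 10 alternatives, the day 4 call was kept in 5 for Dab2 and in 7 for Gata6. The change from day 1 to day 4 was called different between the lines in none of the 8 (3 at an unadjusted p below 0.05, 1 by DESeq2), beside 0.651% of all genes, with 2.36 ± 0.78 for Gata6 and 1.05 ± 0.29 for Dab2 (edgeR adjusted p = 0.187 and 0.0872). Each line was a single clone, so the deleted allele and the clone cannot be told apart.

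In TX1072 and TXdXicCast, the day 4 library with the most Foxa2 and Gata6 was high in streak genes too. Cer1, a Nodal and Wnt antagonist of anterior endoderm, held 10.0, 1.15 and 1.07 CPM in TX1072 replicates 1, 2 and 3 and 0.918, 0.949 and 7.07 CPM in those of TXdXicCast. Lhx1, a homeobox factor of anterior mesendoderm, held 4.90, 0.512 and 0.671 CPM and 0.337, 0.561 and 9.30 CPM. Gsc, a homeobox factor of the organizer, held 9.11, 1.86 and 2.26 CPM and 1.78, 1.34 and 7.40 CPM. For all of these genes TX1072 replicate 1 and TXdXicCast replicate 3 were the highest of their group. T (Brachyury), which marks the streak, was 183, 99.0 and 71.6 CPM and 18.96, 11.3 and 90.0 CPM. Eomes, the factor upstream of both streak mesoderm and endoderm, varied less, at 122, 78.8 and 68.3 CPM and 50.0, 43.7 and 68.4 CPM. In TXdXicB6 replicate 3 was the highest in Foxa2 (10.8 CPM) and Cer1 (2.18, against 1.23 and 0.736 CPM) and the lowest in Gata6 (0.153 CPM). These libraries were singled out after their values were seen, and the part of culture or sampling in them was not tested.

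In single TX1072 cells, Foxa2 was detected in few cells until day 3 and in many on day 4. At least 1 UMI was found in 0.722% of cells on day 0, 2.77% on day 1, 2.93% on day 2, 1.17% on day 3 and 36.4% on day 4 (99 of 272 cells, exact 95% interval 30.7 to 42.4%). Intervals are Clopper-Pearson, cover counting error only and say nothing of the spread between cultures, since each day was 1 culture. Median depth was 138565, 124651, 125591, 130377 and 171158 UMIs per cell on days 0 to 4. With every cell thinned to 40000 UMIs, the day 4 share was 26.5% and the shares of days 0 to 3 were 0.722, 2.46, 1.76 and 0.778%. No cell type known to lack these genes was in the cultures, so no share that free RNA alone gives could be read from one. Of the 99 cells, 31 held a single Foxa2 UMI, and 25.0% of all day 4 cells held 2 or more. Of 128 capture sites of day 4 that were not retained, empty ones among them, 30.47% held a Foxa2 UMI at a median of 25412.5 UMIs per site. The part of free RNA in the shares of day 4 was not tested.

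The molecules of Foxa2 were concentrated in few cells. Of the 3693 UMIs on day 4, 86.0% lay in 24 cells with 50 UMIs or more, while 31 cells had a single UMI. The highest cell held 286. In the bulk library of the same culture the level was 29.2 CPM, the one that stood above replicates 2 and 3, and over the cells it was 81.3 CPM (exact Poisson interval 78.7 to 83.9). The bulk value counts reads of rRNA-depleted RNA and the single-cell value counts UMIs, so their sizes are not compared. The Poisson interval covers counting error of UMIs only, and not the spread between cells.

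Dab2 was detected in a growing share of cells: 7.94% (interval 5.04 to 11.8), 15.4% (11.6 to 19.8), 28.4% (23.7 to 33.5), 37.0% (31.0 to 43.2) and 50.4% (44.3 to 56.5) on days 0 to 4. After thinning, the shares were 6.50, 10.8, 22.9, 28.8 and 39.7%. The number of UMIs per positive cell was not in the same order. Its median was 7, 7.5, 4, 7 and 13, and the highest cell of day 4 held 131 UMIs, or 5.49% of that day's 2384. The highest Foxa2 cell of day 4 held 7.74% of that gene's UMIs.

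Lama1 was detected in 74.0% of day 0 cells (interval 68.4 to 79.1, 205 of 277), in 19.4% on day 1, 4.99% on day 2, 9.73% on day 3 (interval 6.39 to 14.0) and 4.78% on day 4 (interval 2.57 to 8.03). The day 2 interval (2.93 to 7.86) overlapped with that of day 3. Positive cells had a median of 12 UMIs on day 3 against 5 on day 2. The day 0 interval lay above those of all later days, although single cells still held up to 28 UMIs on day 3.

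The other transcription factors and Pdgfra were found in few cells on any day. Gata6 was detected in 1.44, 2.15, 1.47 and 0% of cells on days 0 to 3, where 0 of 257 cells allows a share of up to 1.17% (3 counts of the total, a limit on cells with a UMI and not on cells that express the gene, with an exact upper bound of 1.43%), and in 6.62% on day 4 (18 cells, interval 3.97 to 10.3). The highest Gata6 cell of day 4 held 61 of the 216 UMIs. Gata4 was detected in 0.722% of cells on day 0 and 4.41% on day 4 (12 cells, interval 2.30 to 7.58). Sox17 had no UMI in the 277 day 0 cells, which allows up to 1.08% by the same limit (exact upper bound 1.32%), and was in 3.38, 2.05, 3.11 and 3.31% of cells on days 1 to 4. Sox7 was found in at most 1.17% of cells on any day, and on day 1, where its bulk level peaked, in 3 of 325. Pdgfra was found in 2.53, 0, 1.47, 1.56 and 3.31% of cells, where 0 of 325 allows up to 0.923% (exact upper bound 1.13%). Day 4 cells were deeper than others. With 40000 UMIs per cell the day 4 share was 3.68% for Gata6, 1.47% for Gata4, 2.21% for Sox17 and 1.10% for Pdgfra, and the day 0 share was 1.08, 0.361, 0 and 2.17% in the same order, while Sox17 was in 1.23% on day 1.

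**Figure D3:**
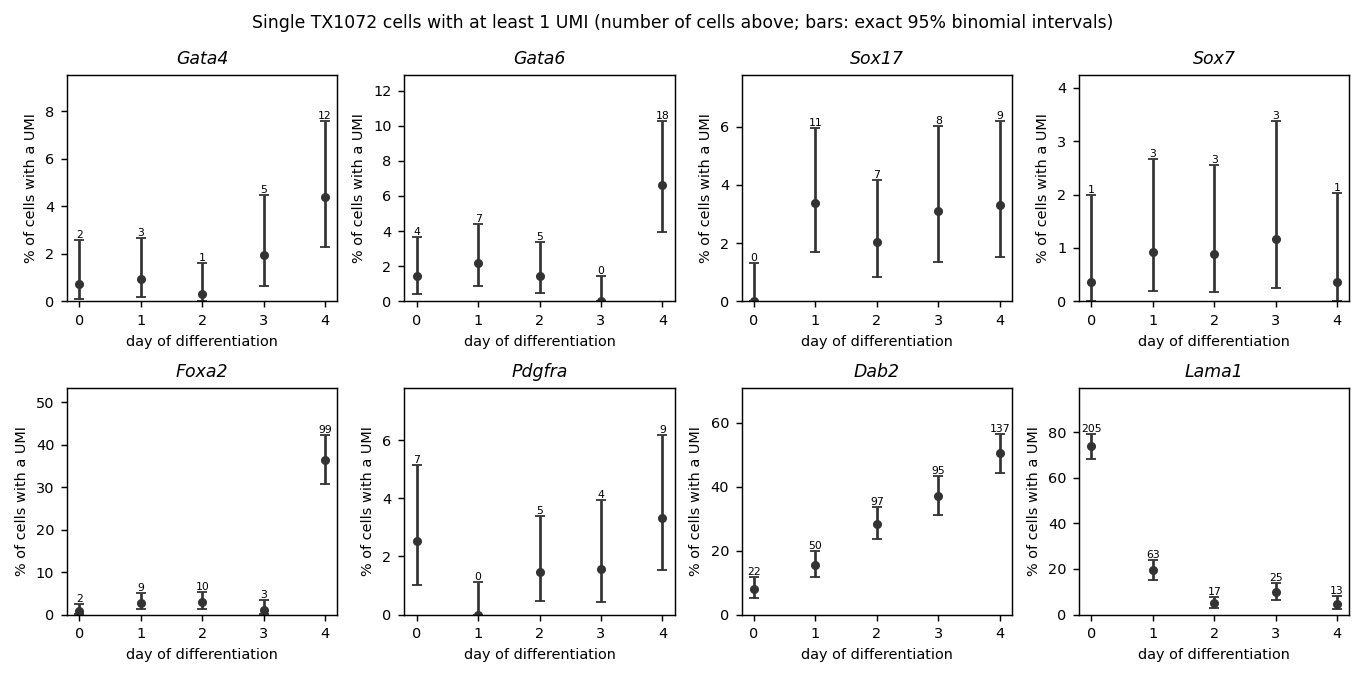
Share of single TX1072 cells with at least 1 UMI of each gene by day (linear axes, each with its own range), with exact 95% binomial intervals and the number of positive cells above. Dab2 went from 7.94 to 50.4% and Lama1 from 74.0 to 4.78%, while Foxa2 was at or below 2.93% until day 3 and at 36.4% on day 4.

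Few cells held UMIs of several of the factors other than Foxa2. A cell was counted when it held at least 1 UMI of at least 2 of Gata4, Gata6, Sox17 and Sox7. There were 0, 1, 1, 0 and 4 such cells on days 0 to 4, so 1.47% of day 4 cells (interval 0.402 to 3.72). Genes this low can be missed in a cell that expresses them, and cells that pair 1 of the 4 with Foxa2 are counted separately. The day 1 cell held 4 UMIs of Gata4, 1 of Sox17 and 2 of Sox7, and the day 2 cell held 12 of Gata6 and 23 of Sox7, both without Foxa2.

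All 4 cells of day 4 held Gata6 and Foxa2. The first held 36 UMIs of Gata6, 29 of Sox17 and 190 of Foxa2. The second held 22 of Gata6, 1 of Gata4, 151 of Foxa2 and 12 of Lama1. The third held 6 of Gata6, 9 of Sox17 and 9 of Foxa2, and the fourth 6, 13 and 4. None held Pdgfra or Sox7, and the Dab2 count was 1, 1, 1 and 0. Thus 3 of the 4 paired Gata6 with Sox17.

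By pairs, Gata6 and Foxa2 were found together in 13 cells of day 4, where the product of their shares gives 6.55 cells. With 2 UMIs or more of each gene, the pair was in 2.94% of day 4 cells, Gata6 in 4.04% and Gata4 in 2.57%. Of the 18 Gata6 cells, 72.2% held Foxa2, while 13.1% of the 99 Foxa2 cells held Gata6. Gata6 and Sox17 shared 3 cells (0.596 by the product). Foxa2 and Dab2 shared 45 cells, beside 49.9 by the product, and Gata4 and Foxa2 shared 4 (4.37). These counts describe 1 culture, and deeper cells have more of every gene, so no test was made.

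Foxa2 cells of day 4 were further described by other genes. The split by Foxa2 UMI was made after its values were seen, and the groups had nearly the same depth (medians of 172168 and 171134 UMIs). Of the 99 cells with Foxa2, 71.7% held T, 73.7% Eomes, 38.4% Mixl1, 34.3% Gsc and 22.2% Lhx1. In the 173 cells without it the shares were 48.0, 48.6, 12.1, 13.3 and 5.78%. The intervals did not overlap for any of these 5 streak genes. Fgf8, an FGF ligand of the streak, was in 75.8 and 52.0%, and Fst, which encodes the activin antagonist follistatin, in 76.8 and 48.0%. Dab2 was in 45.5 and 53.2%, with overlapping intervals.

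Shares of most of these genes were higher in the cells with the most Foxa2 than in those without it. From cells with 0 Foxa2 UMIs to the 24 cells with 50 or more, the share with Lhx1 was 5.78 and 41.7%, with Gsc 13.3 and 58.3%, with Cer1 6.94 and 29.2%, with Eomes 48.6 and 100%, and with T 48.0 and 87.5%. Gata6 was in 2.89 and 16.7%. In the 31 cells with a single Foxa2 UMI the shares were 6.45% for Lhx1, 16.1% for Gsc and 6.45% for Cer1, close to those of cells with none. Gata6 was in 9.68% of these 31 cells, against 2.89% of cells with none. Its shares in all groups rest on few cells, since only 18 cells of day 4 held it. In the 26 cells with 2 to 9 UMIs and the 18 with 10 to 49, Gsc was in 30.8 and 38.9% and Cer1 in 11.5 and 22.2%, between the shares of the cells with 1 UMI and those with 50 or more. T was in 80.8 and 72.2%, Lhx1 in 23.1 and 22.2%, Eomes in 73.1 and 72.2% and Gata6 in 15.4 and 11.1% of the same cells, without a rise from one group to the other. The 18 cells with Gata6 held Cer1 in 50.0%, Lhx1 in 61.1% and Gsc in 61.1%, against 7.48, 8.27 and 18.1% of the other 254. Their median depth was 196589 UMIs against 170836.

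**Figure D4:**
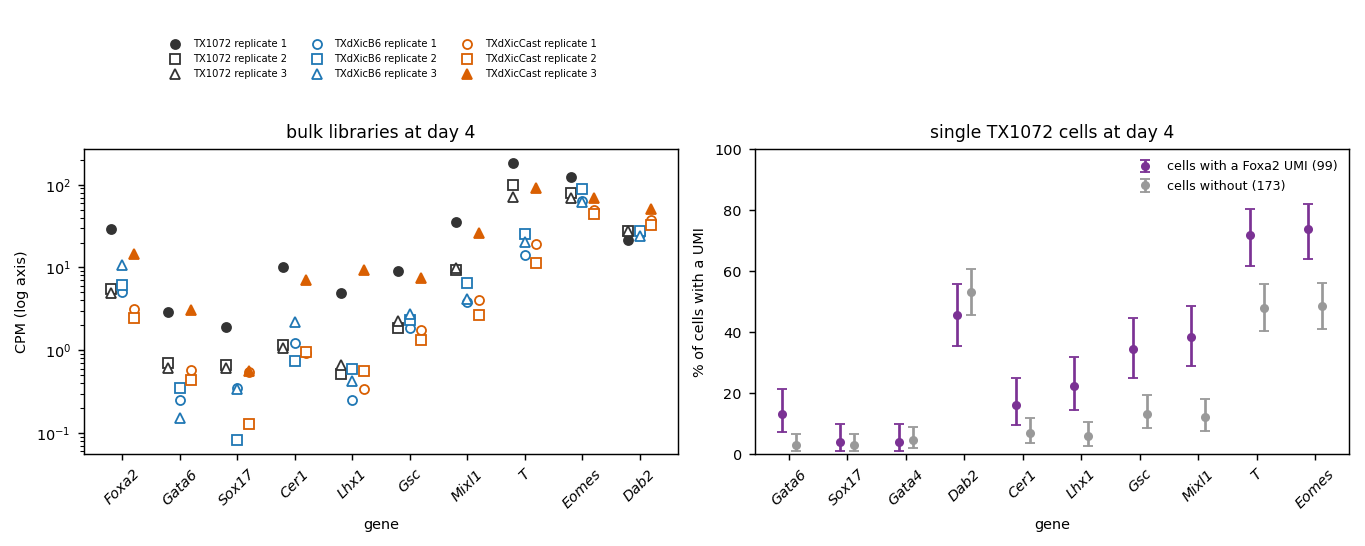
Left, day 4 levels of endoderm and streak genes (CPM, log axis) in the 9 bulk libraries, with TX1072 replicate 1 and TXdXicCast replicate 3 filled. Right, share of single day 4 cells with a UMI of each gene (linear axis, exact 95% intervals), for the 99 cells with a Foxa2 UMI and the 173 without. The filled symbols lie highest of their line for Foxa2, Gata6, Cer1, Lhx1, Gsc, Mixl1 and T, and Lhx1, Gsc, Mixl1, T and Eomes were found in a larger share of Foxa2 cells, with intervals that did not overlap.

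Other genes of the lineages in which the 8 genes are used were counted from marker lists. Of 10 definitive endoderm and primitive streak genes, 8 rose and none fell in TX1072 on day 4, beside 31.5% and 26.2% of all genes, with a median log2 fold change of 2.73. Fgf8 rose from 0.0615 to 38.6 CPM (9.31 ± 0.71), Lhx1 from 0.0089 to 2.03 CPM (7.04 ± 1.18, and 5.25 without day 4 replicate 1) and Eomes from 2.83 to 89.9 CPM (5.00 ± 0.24). Gsc and Prdm1 were not called. In TXdXicB6 and TXdXicCast 8 and 9 of the 10 rose, beside 29.7% and 34.6% of all genes, and Gsc fell in each (-1.33 and -1.29, edgeR adjusted p = 0.00581 and 0.00474).

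Visceral endoderm genes were mixed. Of 14 tested in TX1072, 8 rose and 4 fell, beside 31.5% and 26.2% of all genes. Afp, Ttr and Apoa1, which define differentiated visceral endoderm, were too low to be tested there. In TXdXicB6 7 of 15 rose and 4 fell, beside 29.7% and 29.3% of all genes, and in TXdXicCast 6 rose and 7 fell, beside 34.6% and 35%. In TX1072 Cer1 rose from 0.0179 to 4.07 CPM (7.26 ± 1.02, and 5.36 without day 4 replicate 1) and Lrp2, the receptor megalin, from 11.9 to 694 CPM (5.87 ± 0.22). Hnf4a, a nuclear receptor of visceral endoderm, fell from 6.26 to 0.032 CPM (-7.43 ± 0.46), and its share of single cells was 11.6% on day 0 and 0 of 272 on day 4, which allows up to 1.10%. Lrp2 was detected in 91.2% of day 4 cells, so it did not mark a small population.

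Parietal endoderm and basement membrane genes rose in 5 cases of 9 and fell in 2 in TX1072, beside 31.5% and 26.2% of all genes. The count was 1 higher and 4 lower in TXdXicB6 and 4 higher and 3 lower in TXdXicCast, so the shares called lower were above and near those of all genes (29.3% and 35%). In TX1072 Fst rose from 4.43 to 75.9 CPM (4.11 ± 0.27), while Nid1, which encodes the linker protein nidogen, fell from 309 to 22.0 CPM (-3.81 ± 0.15) and Srgn, a proteoglycan core, from 5.95 to 0.472 CPM (-3.65 ± 0.27). Of 10 laminin chains other than Lama1, 5 rose and 3 fell in TX1072, beside 31.5% and 26.2% of all genes. In TXdXicB6 4 rose and 3 fell, beside 29.7% and 29.3%, and in TXdXicCast 6 rose and 4 fell, beside 34.6% and 35%. The shares called lower were near those of all genes. Lamb1, the beta chain that pairs with Lama1, rose from 27.9 to 237 CPM (3.08 ± 0.13), opposite to Lama1, and Lamc1, the gamma chain of the same trimer, changed from 455 to 204 CPM (-1.16 ± 0.14). Lamb3 rose from 0.600 to 11.9 CPM (4.28 ± 0.25) and Lama2 from 0.0455 to 0.435 CPM (3.16 ± 0.62).

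The next counts are of TX1072 on day 4, beside 31.5% of all genes higher and 26.2% lower. Among 6 relatives of the factors that were tested, Foxa1 (3.63 ± 0.55) and Foxa3 (2.98 ± 0.34) rose, both to below 4 CPM, and 3 fell, Gata1 most (-2.83 ± 0.49). Among 5 genes of the PDGF family other than Pdgfra, Pdgfb (5.15 ± 0.28) and Pdgfd (4.79 ± 0.37) rose and 2 fell. Pdgfc, a ligand of Pdgfra, changed by -2.01 ± 0.15, and so did Pdgfa, its main ligand, by -1.19 ± 0.17. The FGF-ERK pathway, which induces Gata6 in the blastocyst, had 6 higher and 4 lower of 10. Its feedback genes Spry4 (7.63 ± 0.37) and Dusp6 (6.21 ± 0.22) rose, as did the ligand Fgf5 (10.06 ± 0.34), a marker of the primed state, and Fgf4 fell (-3.20 ± 0.15).

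Genes of other cell types moved in the same cultures, counted in TX1072 on day 4 beside 31.5% of all genes higher and 26.2% lower. All 11 pluripotency factors fell, Klf4 (-5.58 ± 0.22), Prdm14 (-5.20 ± 0.19) and Tfcp2l1 (-4.66 ± 0.16) most. Of 5 mesoderm genes tested, 4 rose, among them Kdr (2.96 ± 0.32) and Twist1 (2.64 ± 0.22), and Hand1 went from no count on day 0 to 1.49 CPM. Of 7 fibroblast and smooth muscle genes, 4 rose and 2 fell. Tagln rose from 0.0829 to 425 CPM (12.31 ± 0.33), Acta2 from 0.0228 to 110 CPM (12.01 ± 0.47), and Col3a1 went from no count to 1.16 CPM. Tagln was in 97.4% of single day 4 cells and Col3a1 in 0.735%. Of 4 neural genes, Pax6 (2.38 ± 0.53) and Nes (1.76 ± 0.14) were among 3 that rose, and Sox1 changed by -0.93 ± 0.38 (edgeR adjusted p = 0.043). Of 4 trophoblast genes, 2 rose, Krt7 (7.84 ± 0.26) and Hand1, counted with mesoderm too, and 2 fell, Cdx2 (-2.26 ± 0.37) and Tfap2c (-0.80 ± 0.16). The part of these lineages in the endoderm genes was not tested. Gsc, Prdm1, Lamc1, Pdgfa, Fgf4 and Tfap2c were named after their values were seen, the other list genes by size of change. Every fold change in the account of the lists whose p is not given had an edgeR adjusted p of at most 0.000611. Leaving out 1 library moved the fold by more than 1.5 times, with the call kept, also for Foxa1 (2.90 and 4.39 without day 0 replicates 1 and 3), Fgf5 (10.69) without day 0 replicate 1, Spry4 (7.02 and 8.40 without day 0 replicates 1 and 2), Kdr (3.57) without day 0 replicate 3, Hnf4a (-10.61) without day 4 replicate 2, and Gata1 (-4.14) and Sox1 (-1.56) without day 4 replicate 3. Cer1 and Lhx1 were at 9.94 and 8.93 without day 0 replicate 1.

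The genes most like each member over the 15 TX1072 libraries (Pearson r of log2 CPM, a description with days, kit and depth in common) did not repeat between members, with 1 exception. Clu, Frmpd1 and Wdr72 were most like Dab2 (r = 0.99, 0.99 and 0.98) and kept r of 0.91, 0.87 and 0.91 over the 30 deletion-line libraries. Ttll3, Tigar and Tsc22d1 were most like Lama1 (0.98, 0.98 and 0.97, then 0.96, 0.98 and 0.89). Gata6 was closest to Apln, Arf2 and Evx1os (0.95, 0.93 and 0.91, then 0.41, 0.66 and 0.34), and Sox17 to Dusp23, Best2 and Apln (0.84, 0.76 and 0.72, then -0.10, 0.07 and -0.02). Apln, the ligand apelin, was thus named for both, and the likeness of Sox17 did not carry over to the deletion lines.

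For the rest, Gata4 was closest to Me3, Eya4 and Reep5 (0.97 each, then 0.79, 0.83 and 0.86), Pdgfra to Zfp697, Zbtb5 and Tmprss2 (0.97, 0.97 and 0.96, then 0.83, 0.88 and 0.76), Foxa2 to Pex6, Relt and Serpinb9e (0.93, 0.92 and 0.92, then 0.22, 0.73 and 0.82), and Sox7 to Grk6, Emc8 and Chga (0.91, 0.89 and 0.89, then 0.52, 0.77 and 0.38). Within the set, Gata4 and Dab2 (r = 0.92), Gata4 and Pdgfra (0.89) and Pdgfra and Dab2 (0.88) were the closest pairs in TX1072. In the deletion lines these were 0.75, 0.75 and 0.60.

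The hybrid cells allowed the alleles of Dab2 and Lama1 to be read apart. Over all autosomal genes with at least 100 allele-assigned counts, the median B6 share per library was 50.6 to 51.2%, and the 5th percentile was 31.8 to 39.2%. Dab2 RNA came almost wholly from the Cast allele on day 0. In TX1072 no count was assigned to B6 and 73 to Cast, which allows a B6 share of up to 4.11%. This is 3 counts of the total, a limit that takes reads as independent and covers counting error only. The B6 share was 2.73 ± 2.64% on day 1, 15.6 ± 2.7% on day 2, 23.8 ± 7.1% on day 3 and 20.8 ± 6.6% on day 4 (SD, n = 3).

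The values per TX1072 library were 5.26, 0 and 2.94% on day 1 and 13.3, 24.0 and 25.1% on day 4, so all libraries of day 4 lay above those of day 1. In TXdXicB6 the share went from 2.92 ± 1.80% on day 1 to 11.2 ± 2.1% on day 4, and in TXdXicCast from 1.30 ± 1.15% on day 0 to 15.2 ± 0.9% on day 4. The lowest number of assigned counts behind a Dab2 value was 23 per TX1072 library. Both alleles gained counts from day 0 to day 4, but the Cast allele stayed the larger source in all 45 libraries. No test was made of these shares. All 3 lines descend from 1 clone, so the allele bias is that of a single genome.

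The promoter of Dab2 is shown because its alleles were unequal. The first of its 2 starts lies on chromosome 15, plus strand (chr15:6299539-6299838 in GRCm38, RefSeq). The 6 capitals mark the sites where B6 and Cast differ (A20G, A43G, T63C, A83C, C125T and T157C, positions counted from the 5′ end, B6 base first and Cast second).
Dab2 start 1: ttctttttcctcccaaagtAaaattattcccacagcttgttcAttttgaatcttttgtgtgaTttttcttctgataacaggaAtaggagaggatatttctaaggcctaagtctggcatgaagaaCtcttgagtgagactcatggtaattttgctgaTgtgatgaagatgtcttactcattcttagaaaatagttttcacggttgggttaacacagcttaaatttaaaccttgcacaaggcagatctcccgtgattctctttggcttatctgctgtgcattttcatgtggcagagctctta
The start site is base 251. The letters AGATAA occur once, on the opposite strand from base 265, outside all 6 of these sites. The promoter of the second start (chr15:6386498-6386797) had no listed difference between the strains and none of the 3 motifs, and that of Pdgfra had 2 differences. Which start was used cannot be told from counts per gene. Promoters of Gata4, Gata6, Sox17, Sox7 and Lama1 were not analysed here.

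**Figure D5:**
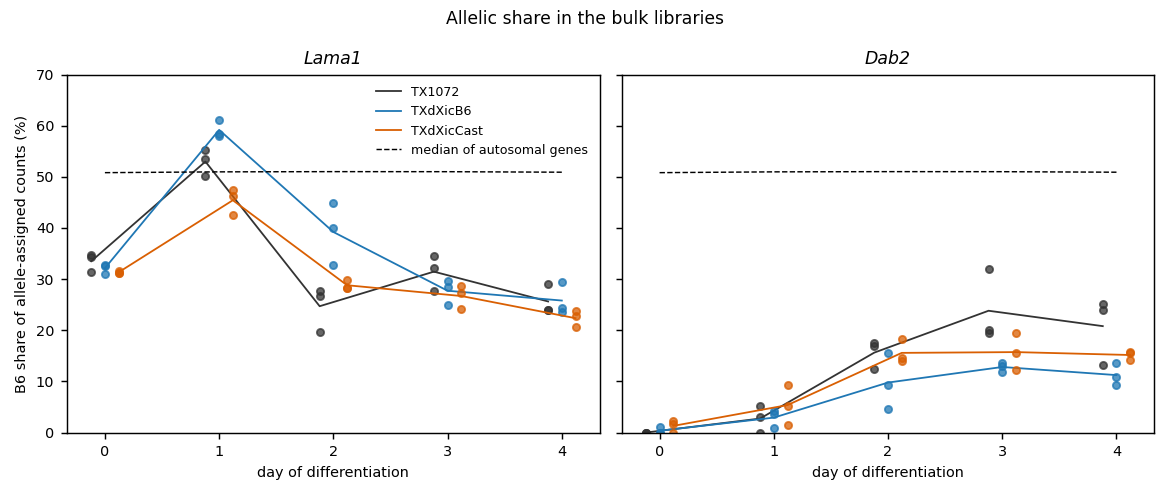
Share of allele-assigned counts on the B6 allele (%, linear axis) of Lama1 and Dab2 by day in the 3 lines. Points are libraries, lines the means of 3, and the dashed line the median of autosomal genes (50.6 to 51.2%). Dab2 stayed at or below 32.0% in every library, and Lama1 lay between 42.5 and 61.1% on day 1 and lower on most other days.

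The allelic balance of Lama1 changed between days. The B6 share in TX1072 was 34.6, 31.5 and 34.4% on day 0, 55.3, 50.2 and 53.5% on day 1 and 19.7, 27.6 and 26.8% on day 2, so the libraries of day 1 lay above all others. In TXdXicB6 the means were 32.1 ± 0.9%, 59.2 ± 1.7% and 39.2 ± 6.1% on days 0, 1 and 2, and in TXdXicCast 31.3 ± 0.2%, 45.4 ± 2.6% and 28.8 ± 0.9%. Of all counts, 5.21% were assigned to an allele in TXdXicB6 day 0 replicate 1 and 9.57% in day 2 replicate 2. The median over the libraries of that line was 31.4%. The day 2 library had a Lama1 share of 32.8%, from 61 assigned counts. On day 4 the share was 25.6 ± 2.9%, 25.8 ± 3.2% and 22.4 ± 1.6% in TX1072, TXdXicB6 and TXdXicCast. The day 1 rise in share came while the total fell: in TX1072 the counts assigned to B6 went from 2835 on day 0 to 989 on day 1, and those assigned to Cast from 5651 to 890.

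Other members had at least 10 assigned counts in all 3 libraries only on some days. Sox7 at its day 1 peak had a B6 share of 77.7 ± 8.6% in TXdXicB6 and 72.5 ± 6.5% in TXdXicCast, with at least 61 and 37 assigned counts per library. Foxa2 on day 4 had 27.4 ± 0.7% and 40.3 ± 9.2% in the same lines, and Gata4 44.5 ± 9.0% and 55.6 ± 10.6%. Gata4 on day 4 of TX1072 was at 66.6 ± 7.2%, from 14, 24 and 30 assigned counts. Pdgfra ranged from 42.3 ± 3.7% on day 4 to 73.6 ± 6.3% on day 3 in TXdXicB6, without overlap, and the means of TX1072 and TXdXicCast lay between these. On day 1 the B6 share was thus above 50.6 to 51.2%, the median of autosomal genes, for Sox7 in both deletion lines and for Lama1 in TXdXicB6, and below it for Dab2.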

How the data were processed

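Bulk RNA (45 libraries) and single TX1072 cells were sequenced over 5 days. The authors aligned reads with STAR 2.5.2b to mm10, masked at B6/Cast SNPs, and deposited whole-number counts per gene of reads with a single alignment (featureCounts), in all and per allele (SNPsplit), and raw UMI counts per gene and capture site, also split by spliced and unspliced reads. All matrices held whole numbers with differing totals. The deposited SNP list gave base pairs (other values) used only for promoters. Per the labels and methods, multiply occupied and empty capture sites were removed by eye, and the identities of retained cells were taken from the study. No doublet caller was run. All 50 column libraries shared the same 40 row barcodes.

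Counts were tested with edgeR 4.0.16 (R 4.3.3): quasi-likelihood test, TMM factors from autosomal genes, filterByExpr, two-sided, Benjamini-Hochberg adjusted p of 0.05, with separate fits for the 15 TX1072 and the 30 deletion-line libraries. CPM used the same factors. RPKM were computed from CPM and exon length. The 75 spike-in rows (0.230% of UMIs in cells) stayed out. Alternatives were DESeq2 1.42.0, its size factors, no filter, a replicate block, each library left out, and for cells 2 UMIs or more, thinning to 40000 UMIs, spliced UMIs and all capture sites. The test was checked on simulated counts with known changes. Replicates were differentiated on separate days, so replicate numbers pair samples: deviations from group means of same-numbered samples had a median correlation of 0.126 in TX1072 (30 pairs) and 0.137 in the deletion lines (135 pairs), against -0.068 and -0.077 for other numbers. Deviations from a group mean cancel within the group, so positive values for the same number bring negative ones for other numbers. The latter are no separate evidence of pairing.

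The 8 genes and the 12 marker lists (102 genes) were chosen with earlier results of these data known. Named list genes are the 3 of each list with the largest called change at day 4 in TX1072. Likeness is the highest Pearson correlation over the 15 TX1072 libraries. Motif searches and the split of cells by Foxa2 or Gata6 were added after values were seen.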

Additional observations from a re-analysis of the deposited data

Results flagged for a closer look

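Sox17 at day 4 against day 0 had a log2 fold change of 1.544 in TX1072 and -1.534 in TXdXicB6, and in each line every day 4 library lay on the same side of every day 0 library. The difference between the lines was not tested, since their libraries came from different kits and separate fits. The TX1072 value was 0.79 without day 4 replicate 1.

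Capture sites that were not retained also held molecules of the endoderm genes. Of 128 such sites at day 4, 10.94% had a UMI of Gata6, 30.47% of Foxa2, 35.94% of Dab2 and 7.031% of Lama1, at a median depth of 25412.5 UMIs. These sites include those that were empty, held several cells or had lost an X chromosome, and their share by kind was not analysed here.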

How the results depend on the processing

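Of 73 called results of single genes, 50 stayed past the threshold in every alternative listed in the methods and 0 changed sign in them. Calls of day 4 against day 1 within a line are not among the 73, and no alternative was run for them. Leaving out 1 library gave 2 to 4 genes called in TX1072 at day 2 against day 0 (4 with all libraries), 3 to 5 in TXdXicCast at day 3 (5 with all), and between the deletion lines 0 to 1 at day 0 (1 with all) and 0 to 2 at day 4 (2 with all). The day 2 count in TX1072 fell to 2 without day 0 replicate 1 or 3 or without day 2 replicate 1, that of TXdXicCast at day 3 to 3 without its day 3 replicate 1. The difference at day 0 was lost without TXdXicB6 day 0 replicate 2 or 3 or TXdXicCast day 0 replicate 1 or 3, and both of those at day 4 without TXdXicB6 day 4 replicate 1 or 3 or TXdXicCast day 4 replicate 3. That of Dab2 at day 4 stayed called in only 5 of 10 alternatives. No filter gave 4 genes in TXdXicB6 at day 1 (2 with the filter) and 2 for the change from day 1 to day 4 between lines (0 with the filter), where DESeq2 gave 1. Testing with no filter also called Gata6 at day 1 (1.60) and Foxa2 from day 2 to day 3 (-1.52) in TX1072 and Gata4 at day 1 (-0.86) and Gata6 at day 4 (-1.16) in TXdXicB6, with edgeR adjusted p of 0.0091, 0.00225, 0.0337 and 0.0402. DESeq2 ended the calls of Pdgfra at day 2 (0.74, adjusted p = 0.0526), Sox7 at day 4 (1.39, adjusted p = 0.0785) and Gata4 from day 3 to day 4 (0.72, adjusted p = 0.0805) in TX1072, the last also lost with no filter or with the size factors of DESeq2 (edgeR adjusted p = 0.0824 and 0.0507). The replicate block newly called Gata6 at day 1 (1.73, edgeR adjusted p = 0.0141) and Foxa2 from day 2 to day 3 (-1.66, edgeR adjusted p = 0.0207) in TX1072. It also newly called Gata4 at day 1 in TXdXicB6 (-0.87, edgeR adjusted p = 0.0437). The block changed no other call of a single endoderm gene in the comparisons for which alternatives were run. Over all genes tested, the number that differed between the deletion lines was 76, 72, 232 and 1066 on days 1 to 4 and 129 for the change from day 1 to day 4. It was 116, 111, 410, 1637 and 253 with the block. With DESeq2 it was 140, 136 and 498 on days 1 to 3 and 349 for the change, and with no filter 198, 198 and 570 and 400. With day 1 as the base, chosen after seeing the data, Sox7 at day 4 was reversed in TX1072 (-1.343), TXdXicB6 (-1.953) and TXdXicCast (-1.334). The cause was not tested.

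With 2 UMIs or more, the share of cells was 0% for Gata4 at days 0 and 3, 63.9 and 14.46% for Lama1 at days 0 and 1, 22.29 and 41.18% for Dab2 at days 2 and 4, and 25.0% for Foxa2 and 1.103% for Pdgfra at day 4, and Foxa2 and Dab2 were together in 0% at day 2 and 10.29% at day 4. With 40000 UMIs per cell, the share was 62.45 and 14.46% for Lama1 at days 0 and 1, 0.6154 and 3.676% for Gata6 at days 1 and 4, 1.231% for Sox17 at day 1, 10.77, 22.87, 28.79 and 39.71% for Dab2 at days 1 to 4, and at day 4 1.471% for Gata4, 26.47% for Foxa2 and 1.103% for Pdgfra, and Foxa2 and Dab2 were together in 0% at day 2 and 8.824% at day 4. Over all capture sites Dab2 was in 30.75% at day 3. In spliced UMIs alone, Foxa2 at days 0 to 3, Sox17 at days 1 and 2, Sox7 at days 0 to 2 and Gata6 at day 2 are listed at 0% of cells. The unspliced table lists them at 0 too, while the whole table holds UMIs of them, so these zeros may be missing values and are not read as shares.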
